A study of Solanum lycopersicum with 2 samples.

Results

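The 6 gene models described here are listed as cytosolic class I small heat shock proteins (class I Hsp20) of tomato, Solanum lycopersicum. Below, the 6 are called the class I models or the family. They are 4 models of a tandem cluster on chromosome 6 (Solyc06g076520, Solyc06g076540, Solyc06g076560 and Solyc06g076570) and 2 copies on chromosome 9 (Solyc09g015000 and Solyc09g015020). They were picked by identifier from the 24915 models listed in at least 1 of 2 leaf libraries, and their class was taken from a prepared list, since the files hold identifiers without gene names. Whether that list holds every class I model of tomato was not checked. Young leaves of 8-week-old plants of the cultivar Moneymaker were profiled in 1 heat-stress library and 1 control library. Heat-stressed plants were placed in a growth chamber at 120 μmol m-2 s-1 of light, kept for 1 h at 39°C and given 1.5 h at 24°C before sampling. Both groups were raised in a glasshouse with 16 h days at 24°C and 8 h nights at 20°C. The labels do not say whether control plants were also moved, and neither the number of plants behind a library nor the time of day is given.

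Small heat shock proteins are chaperones that work without ATP. They assemble into large oligomers through a conserved alpha-crystallin domain, bind proteins that are unfolding, and hold them in a state from which Hsp70 and Hsp101 machines can refold them. Class I is the main cytosolic and nuclear class in plants. In leaves its genes are known for low expression at normal temperature and for strong induction by heat stress transcription factors, and some members also serve in seeds, pollen and fruit.

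Transcripts were measured by massive analysis of cDNA ends (MACE), which reads 1 fragment from the 3' end of each poly-A transcript, within the last 500 bp. A level is therefore given in reads per 1000000 mapped reads (RPM) with no term for transcript length, and RPM of different genes can be set side by side if each model reaches the true 3' end. Depth was 13857252 mapped reads for the heat-stress library, where 1 read is worth 0.0722 RPM, and 11534512 for the control library, where it is worth 0.0867 RPM. With 1 library per condition no test between conditions was possible. Every interval is a 95% exact interval for counting error alone, with reads rounded to whole numbers, and the spread between plants or preparations is unknown. In a whole leaf, a different number of cells making a transcript and a different amount per cell cannot be told apart. The identity of the leaf tissue was not checked against marker genes.

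Together the class I models were about 12 times as abundant in the heat-stressed leaf as in the control leaf, and each of the 6 was higher. Their summed level was 5154 RPM in the heat-stress library (interval 5116 to 5192) and 427.5 RPM in the control library (416 to 440). The ratio of the sums was 12.1 (11.7 to 12.4). These reads made up 0.515% of all mapped reads in the heat-stress library and 0.0428% in the control library. The sum does not depend on how reads were divided among these copies, although reads divided with models outside the family would still affect it.

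The chromosome 6 cluster held the larger part of the class I transcripts in both libraries. Its 4 models summed to 3142 RPM in the heat-stress library and 234.6 RPM in the control library, a ratio of 13.4 (12.9 to 13.9). The chromosome 9 pair summed to 2012 RPM in the heat-stress library and 192.9 RPM in the control library, a ratio of 10.4 (9.99 to 10.9). The counting intervals of these ratios did not overlap. The chromosome 6 share of the family was 61.0% in the heat-stress library and 54.9% in the control library.

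Within the chromosome 6 cluster, Solyc06g076520 was the most abundant copy. It had 23867.2 reads, or 1722 RPM (1701 to 1744), in the heat-stress library and 1245.3 reads, or 108.0 RPM (102 to 114), in the control library. Its ratio of 16.0 (15.1 to 16.9) was the highest of the 6, and its log2 ratio, with a pseudocount of 1 RPM as in all single-model log2 ratios here, was 3.98. Among all models it ranked 37 by level in the heat-stress library and 1078 in the control library.

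The next model in the cluster, Solyc06g076540, lies on the same strand and was by far the weakest copy. It had 327.1 reads, or 23.6 RPM (21.1 to 26.3), in the heat-stress library and 45.8 reads, or 3.97 RPM (2.92 to 5.32), in the control library. The ratio was 5.94 (4.34 to 8.24) and the log2 ratio 2.31. This value was the least firm of the 6: it was 1.67 with a pseudocount of 5 RPM and 1.64 with the height of the highest read peak used in place of reads.

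The remaining pair of the cluster lies on the opposite strand, and its members were closer in level than the first pair. Solyc06g076560 had 8855.9 reads, or 639 RPM (626 to 653), in the heat-stress library and 563.8 reads, or 48.9 RPM (44.9 to 53.1), in the control library, with a ratio of 13.1 (12.0 to 14.3) and a log2 ratio of 3.68. Solyc06g076570 had 10483 reads, or 756 RPM (742 to 771), in the heat-stress library and 851 reads, or 73.8 RPM (68.9 to 78.9), in the control library, with a ratio of 10.3 (9.56 to 11.0) and a log2 ratio of 3.34. Solyc06g076570 was thus the higher of the pair in both libraries but had the smaller ratio, with intervals that did not overlap.

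The copies on chromosome 9, both on 1 strand, differed from each other more than the last pair. Solyc09g015000 was the most abundant class I model in either library, with 24888 reads, or 1796 RPM (1774 to 1818), in the heat-stress library and 1688.5 reads, or 146.4 RPM (139 to 153), in the control library. The ratio of this copy was 12.3 (11.7 to 12.9), or 3.61 on the log2 scale. Solyc09g015020 had 2996 reads, or 216 RPM (209 to 224), in the heat-stress library and 536.5 reads, or 46.5 RPM (42.6 to 50.6), in the control library. Its ratio of 4.65 (4.24 to 5.11) was the lowest of the family, with a log2 ratio of 2.19. Each chromosome thus carried 1 copy with a lower ratio, 5.94 on chromosome 6 and 4.65 on chromosome 9, beside copies with ratios above 10.

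**Figure D1:**
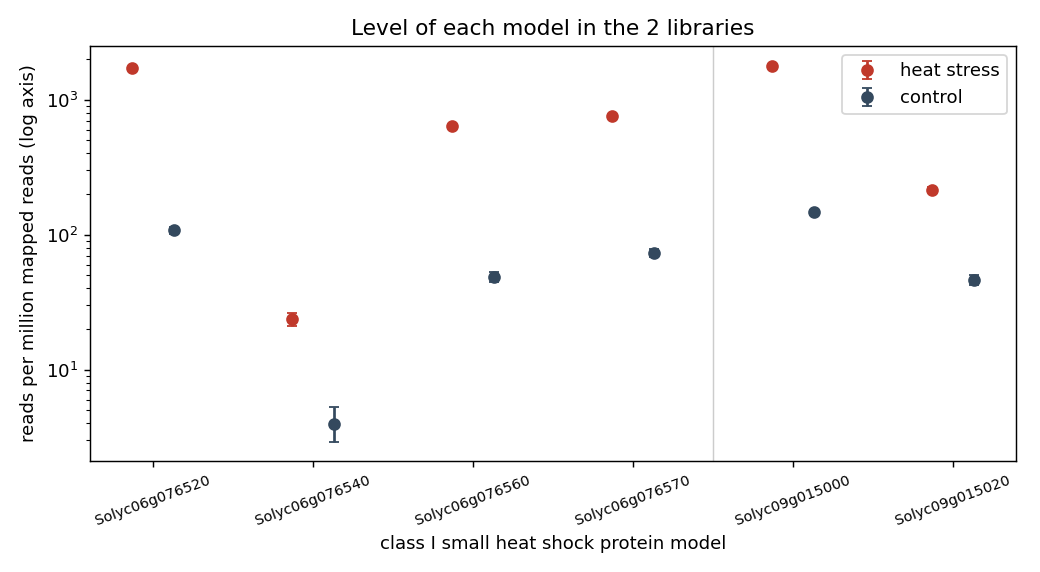
Level of each class I model in RPM (log axis) in the heat-stress library (left point of each pair) and the control library (right point). Bars are 95% Poisson intervals for counting error, and many are smaller than the points. Each heat-stress point lies above its control point, and Solyc06g076540, at 23.6 RPM in the heat-stress library and 3.97 RPM in the control library, lies below the other copies in both libraries.

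The order of the 6 levels was the same in both libraries: Solyc09g015000, Solyc06g076520, Solyc06g076570, Solyc06g076560, Solyc09g015020 and Solyc06g076540. In the heat-stress library the counting intervals of neighbours in this order did not overlap at any step, although the leading copies differed by a factor of only 1.04. In the control library Solyc06g076560 and Solyc09g015020, at 48.9 and 46.5 RPM, had overlapping intervals, and the other neighbours did not. The highest level was 76.1 times the lowest in the heat-stress library and 36.8 times the lowest in the control library.

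Ordered by ratio, the copies ran Solyc06g076520, Solyc06g076560, Solyc09g015000, Solyc06g076570, Solyc06g076540 and Solyc09g015020. The intervals of Solyc06g076560 and Solyc09g015000 overlapped, as did those of Solyc06g076540 and Solyc09g015020. The other neighbours in this order had separate counting intervals. Whether any of these steps exceeds the spread between plants was not tested.

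The unequal ratios gave a different make-up of the class I reads in the 2 libraries. Solyc06g076520 supplied 33.4% of them in the heat-stress library (33.1% to 33.8%) and 25.3% in the control library (24.0% to 26.5%). Solyc09g015020 supplied 4.20% in the heat-stress library (4.05% to 4.34%) and 10.9% in the control library (10.01% to 11.8%). These copies had the largest differences in share. Solyc09g015000 supplied nearly the same share, 34.8% in the heat-stress library and 34.2% in the control library, with overlapping intervals. Solyc06g076560 supplied 12.4% in the heat-stress library and 11.4% in the control library, and Solyc06g076570 supplied 14.7% in the heat-stress library and 17.3% in the control library. Solyc06g076540 supplied 0.458% in the heat-stress library and 0.929% in the control library.

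**Figure D2:**
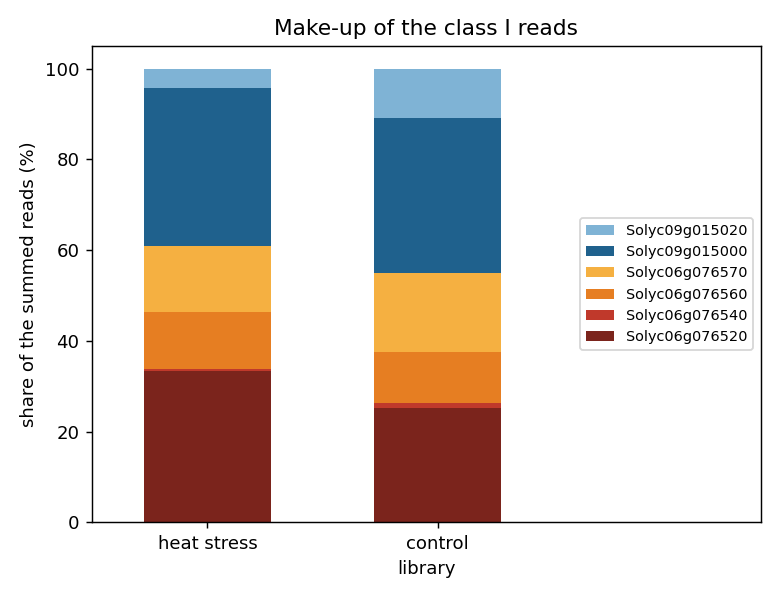
Share of the summed class I reads (%) supplied by each model in the heat-stress library (left bar) and the control library (right bar). The dark red block of Solyc06g076520 covers 33.4% of the heat-stress bar and 25.3% of the control bar, and the light blue block of Solyc09g015020 covers 4.20% of the heat-stress bar and 10.9% of the control bar.

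Seen within each cluster, the leading copy held more of the cluster's reads in the heat-stressed leaf. Solyc06g076520 held 54.8% of the chromosome 6 reads in the heat-stress library (54.4% to 55.3%) and 46.02% in the control library (44.1% to 47.9%). Solyc09g015000 held 89.3% of the chromosome 9 reads in the heat-stress library (88.9% to 89.6%) and 75.9% in the control library (74.03% to 77.6%). How far divided reads contribute to these shares was not tested.

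Against the whole transcriptome, the class I models belonged to the upper end of the ratios. A filter that asked for a mean of 5 RPM or more over both libraries left 11271 models. After heat stress 441 of them (3.91%) were higher by 2-fold or more, and 6 of the 6 class I models were among these. At least 4-fold higher were 6 of the 6, against 87 models in all (0.772%). With the pseudocount, the counting interval of Solyc06g076540 was 1.87 to 2.76 on the log2 scale and reached below 4-fold. Its ratio interval without the pseudocount, 4.34 to 8.24, did not. At least 8-fold higher were 4 of the 6, against 30 models in all (0.266%), the exceptions being Solyc06g076540 and Solyc09g015020. None of the 6 was at least 16-fold higher, a level reached by 9 models (0.0799%) with the pseudocount. For Solyc06g076520 this was a narrow miss, since its counting interval, 3.90 to 4.07 on the log2 scale, reached above 16-fold. With libraries scaled to the reads in gene models its log2 ratio was 4.01, which is above 16-fold. Solyc06g076520, at a ratio of 15.95 without the pseudocount, was the tenth model in the order of log2 ratio. The median log2 ratio was 3.47 over the 6 class I models and 0.10 over all 11271. The 6 were chosen with earlier results of these data known, so these counts describe them and do not test them.

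Solyc06g076540 passed the 5 RPM filter only through its heat-stress level. Its place among the models called higher, at 2-fold and at 4-fold, was thus partly fixed by the filter. With the filter set on the control library alone, a setting added after the data were seen, 5 class I models remained and 5 were at least 2-fold higher, against 352 of 11078 models (3.18%). When the libraries were scaled so that the median model had a ratio of 1, heat-stress values became lower by a factor of 1.08, or 0.11 on the log2 scale. With it the family ratio was 11.2, the 6 models were still at least 2-fold higher, and 329 models were higher and 262 lower over the whole table, in place of 441 and 187.

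**Figure D3:**
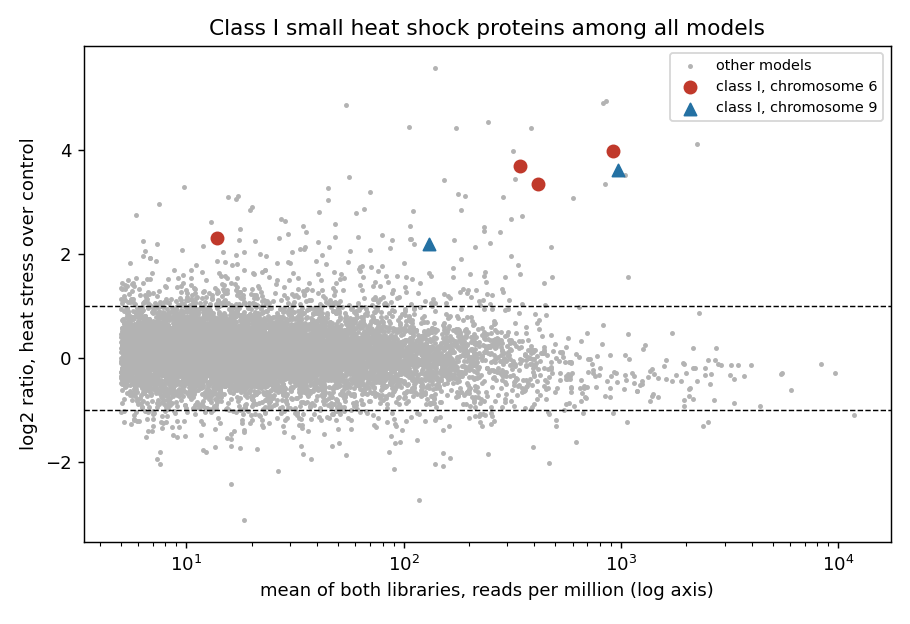
Log2 ratio of heat stress over control against the mean level of both libraries in RPM (log axis) for the 11271 models past the filter (grey), with class I models of chromosome 6 (red circles) and chromosome 9 (blue triangles). Dashed lines mark 2-fold. The 6 class I models lie between 2.19 and 3.98.

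Measured by gain, the difference in RPM of heat stress minus control, the class I models made up 10.8% of the summed gain of 43932 RPM over the 441 higher models. This share follows in direction from how the 441 were picked. Solyc09g015000, with a gain of 1650 RPM, and Solyc06g076520, with 1614 RPM, ranked 3 and 4 among all models by gain. Solyc06g076570 and Solyc06g076560 ranked 12 and 14, with gains of 683 and 590 RPM. The gains of Solyc09g015020 and Solyc06g076540 were 169.7 and 19.6 RPM, at ranks 71 and 841. Of the 100 most abundant models, 3 were class I in the heat-stress library and 0 in the control library, where the best-placed member, Solyc09g015000, ranked 755.

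The models next to both clusters did not have such ratios. Within 100 identifier numbers of a class I model the files listed 31 other models, and 20 of them were past the 5 RPM filter. Of these 20, 0 were higher and 0 were lower by 2-fold or more, which in so few models is close to the 3.91% and 1.66% of the whole table. On chromosome 6 the 13 neighbours past the filter had log2 ratios between -0.54 and 0.48, and they summed to 362 RPM in the heat-stress library and 426 RPM in the control library. On chromosome 9 the 7 neighbours past the filter had log2 ratios between -0.44 and 0.43, and they summed to 102.4 RPM in the heat-stress library and 104.1 RPM in the control library. No other listed model lay between the chromosome 6 members in identifier order. Between the chromosome 9 copies lay 1 model on the opposite strand, at 12.9 RPM in the heat-stress library and 15.9 RPM in the control library. This intervening model had a log2 ratio of -0.28. Its reads were fractional in both libraries.

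**Figure D4:**
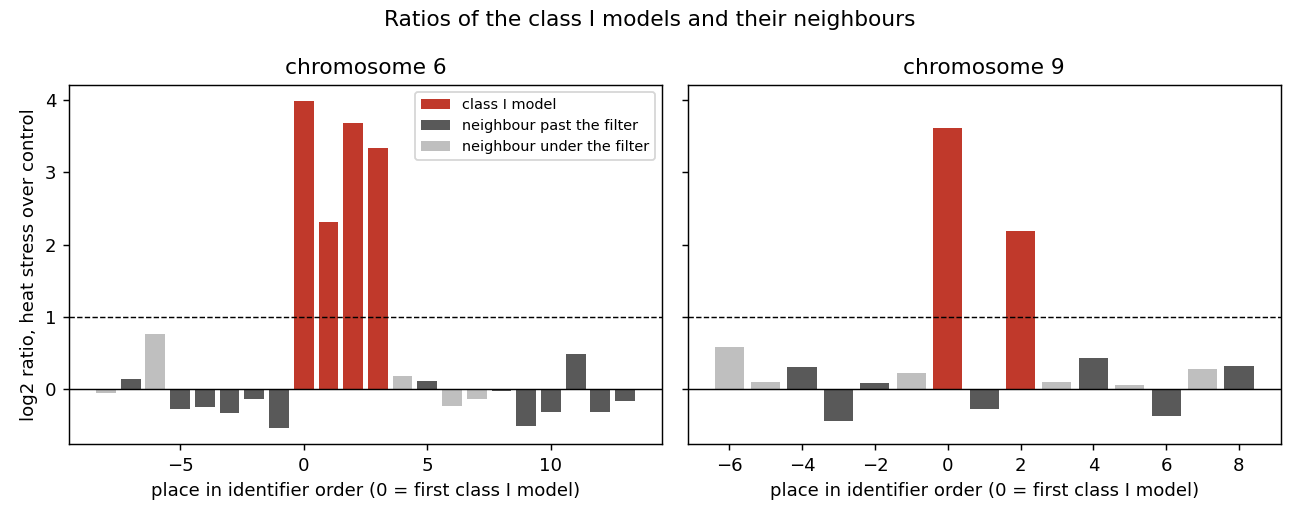
Log2 ratio of heat stress over control for class I models (red) and the other listed models within 100 identifier numbers (dark grey past the 5 RPM filter, light grey under it), placed in identifier order on chromosome 6 (left) and chromosome 9 (right). The dashed line marks 2-fold. Class I bars reach 2.19 to 3.98, and neighbours past the filter lie between -0.54 and 0.48.

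Close copies make the division of reads a limit on the single-copy values. A deposited read number that is not whole shows that at least 1 read was divided between places in the genome. In the heat-stress library 3 of the 6 class I models had fractional reads, against 20.4% of the models past the filter, and in the control library 5 of the 6 did, against 18.2%. The fractions were 0.167 for Solyc06g076520, 0.0833 for Solyc06g076540 and 0.917 for Solyc06g076560 in the heat-stress library. For the same models in the control library they were 0.333, 0.833 and 0.833. Solyc06g076570 had whole reads in both libraries, and the chromosome 9 copies had whole reads in the heat-stress library and a fraction of 0.5 each in the control library.

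Of the 30 combinations of class I models with fractional reads, 4 summed to a whole number within 0.0001 of a read, 1 of 4 in the heat-stress library and 3 of 26 in the control library. In the control library Solyc06g076520, Solyc06g076540 and Solyc06g076560 summed to 1855 reads, and the chromosome 9 copies summed to 2225 reads. The remaining whole sum there joins these sets, and fractions of 0.5 each give a whole sum wherever the reads were divided. In the heat-stress library Solyc06g076540 and Solyc06g076560 summed to 9183 reads, while the 3 fractional chromosome 6 models together did not reach a whole number and kept a fraction of 0.167. Where the parts of divided reads lay was not tested, and the files do not record how many reads were divided. A whole number can also hold divided reads, so the copies without fractions are not known to be free of them. The only model whole in both libraries, Solyc06g076570, had a ratio of 10.3, and the other 5 had a ratio of 12.4 when summed.

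In 3 of the chromosome 6 copies the highest read peak held a larger share of the reads than in most models. The deposited height of the highest read peak, divided by the model's reads, was 46.7% for Solyc06g076520 in the heat-stress library (46.1% to 47.4%) and 51.0% in the control library (48.2% to 53.8%). For Solyc06g076560 it was 45.4% in the heat-stress library and 49.5% in the control library, and for Solyc06g076570 it was 45.8% in the heat-stress library and 48.4% in the control library. The background was 8945 models with at least 100 reads in each library and a highest peak no larger than those reads. Their median was 24.7% in the heat-stress library and 25.4% in the control library. The upper quartiles were 28.7% for heat stress and 29.5% for control. These 3 copies were thus well above the upper quartile in both libraries.

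On chromosome 9 the copies differed in this measure. Solyc09g015020 had 39.02% of its reads in the highest peak in the heat-stress library and 41.8% in the control library. Solyc09g015000 had 25.9% in the heat-stress library and 25.3% in the control library, close to the median of all models. Of the 5 class I models with at least 100 reads in each library, 4 were above the upper quartile in each library and Solyc09g015000 was the exception.

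The peak share was lower in the heat-stress library for 4 of the 5 class I models with enough reads, and also for 58.9% of the 8945 models, whose median difference was -0.57 percentage points. No difference went beyond the 5% and 95% points of other models in these 5. It was -4.27 points for Solyc06g076520, the only class I model whose intervals did not overlap, and those points lay at -6.23 and 4.78 over the 8945 models. Solyc06g076540 had 36.4% in the heat-stress library (31.2% to 41.9%) and 52.4% in the control library (36.9% to 67.1%), where it had too few reads for a firm value. The sources used here do not give the definition of a peak, and the intervals treat it as a part of the model's reads. Peak heights of the class I models were whole numbers, also where the reads were fractional. Whether a peak counts divided reads in full is not known, and if it does, shares in such copies would be too high.

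**Figure D5:**
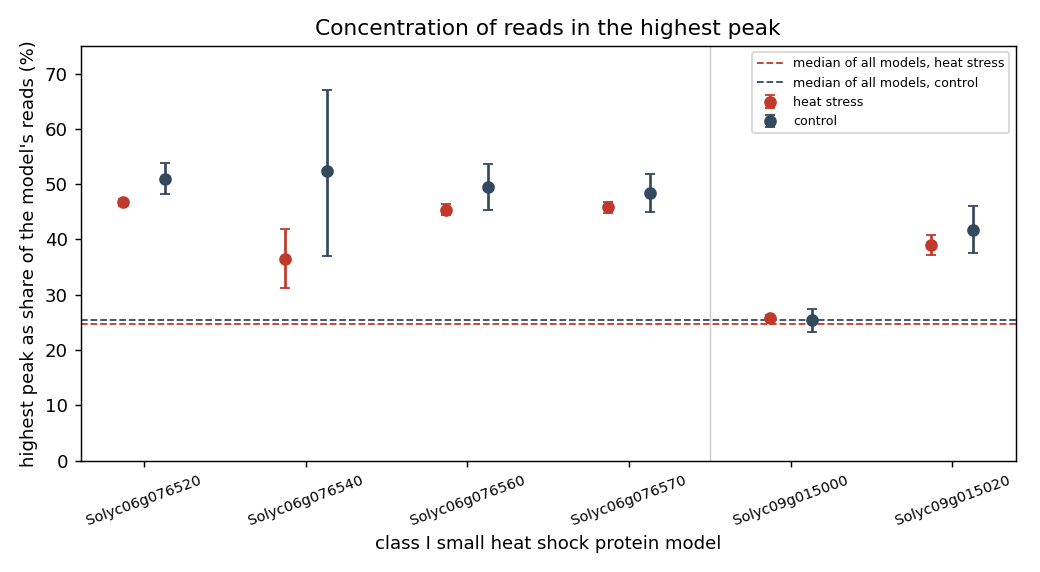
Height of the highest read peak as a share of the model's reads (%) for each class I model in the heat-stress library (left point) and the control library (right point), with 95% exact binomial intervals. Dashed lines are the medians of 8945 models, 24.7% for heat stress and 25.4% for control. These models had at least 100 reads in each library and a highest peak no larger than those reads. Solyc09g015000 lies closest to these lines, at 25.9% in the heat-stress library and 25.3% in the control library, and the other copies lie well above them.

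The 2 models most like the family average in both libraries lay on other chromosomes. Likeness was the distance in log2(RPM + 1) over the 2 libraries from the mean of the 6 class I models, which corresponded to 446 RPM in the heat-stress library and 48.2 RPM in the control library. The nearest was Solyc08g016670.2 on chromosome 8, at 516 RPM in the heat-stress library and 59.5 RPM in the control library, with a ratio of 8.68 (8.02 to 9.40) and a distance of 0.364. The next was Solyc11g020330.1 on chromosome 11, at 596 RPM in the heat-stress library and 53.9 RPM in the control library, with a ratio of 11.1 (10.2 to 12.01), a distance of 0.445 and fractional reads in both libraries. The files do not pair these identifiers with names.

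The 10 nearest models had ratios between 4.43 and 16.1 and lay on 6 chromosomes, with 0 on chromosome 6 and 0 on chromosome 9. The average stands for few of the class I models themselves, since 5 of the 6 were farther from it than the tenth nearest model. Only Solyc06g076560, at a distance of 0.517, was nearer.

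For orientation, the RefSeq gene table of the assembly SLM_r2.1 names 4 small heat shock protein genes on chromosome 6, within 8 consecutive entries. On chromosome 9 it lists no gene whose symbol starts with HSP, and genes under other symbols were not searched for. None of the 24915 identifiers of the files matched that table, so these RefSeq genes were not paired with the class I models, and the other genes of the heat response could not be counted by name.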

How the data were processed

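MACE libraries were made from poly-A RNA of leaves, 1 from heat-stressed and 1 from control plants. FastQC is the only tool named by the submitters' processing notes, and the sources used here do not give the aligner, genome build, annotation or strand setting. Per the file headers, the authors deposited an estimated count of reads for each gene model, unnormalized and fractional where a read was divided. They also deposited a count of all mapped reads per library. The deposited column headed TPM equalled reads per 1000000 mapped reads on every row, to within 3.42e-08, and is called RPM here. The deposited highest peak is a signal in reads.

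A model absent from a library's list was set to 0 there. Log2 ratios were log2((heat stress + 1)/(control + 1)) in RPM and were filtered at a mean of 5 RPM, while sums used no pseudocount. Levels have exact Poisson intervals, ratios conditional binomial (Clopper-Pearson) intervals and shares Clopper-Pearson intervals, computed with scipy 1.17.1 in Python 3.11.15. Without molecular identifiers reads are not shown to be independent molecules, so intervals cover counting error only. Reads were called whole within 1e-06. The calculations were tested on simulated libraries with Poisson counting error only, which cannot show how they do with spread between plants. All 6 members are named; of other models, the 2 most alike are named and neighbours summarised. Members, lists and rules were chosen with earlier results of these data known. Alternatives were other pseudocounts, scalings, filters, thresholds, whole reads and peak heights.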

Additional observations from a re-analysis of the deposited data

How the results depend on the processing

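No direction was reversed under any alternative run. The family ratio of 12.1 was 11.2 with the median ratio scaling and 11.5 with peak heights, and it was 10.3 over the model with whole reads and 12.4 over those with fractional reads, a split added after the data were seen. The chromosome 6 ratio of 13.4 was 12.4 with the median ratio scaling and 12.4 with peak heights, and the chromosome 9 ratio of 10.4 was 9.66 and 9.71 in the same order. A lower ratio with peak heights means that the highest peaks held a smaller part of the summed reads in the heat-stress library. On chromosome 9 the peak share of Solyc09g015000 was 25.9% in the heat-stress library and 25.3% in the control library. This copy held 89.3% of the chromosome 9 reads in the heat-stress library and 75.9% in the control library. The peak share of Solyc09g015020 was 39.0% in the heat-stress library and 41.8% in the control library. How far the make-up of the reads and the peak shares of single copies each contribute was not tested. The scaling lowers each ratio by construction. Gene-model read scaling, reads reduced to whole numbers and, for the family, leaving out Solyc09g015000 stayed within the counting intervals. Of 36 single-model log2 ratios under 6 alternatives, 29 stayed within the counting interval and 7 did not. The 441 models at least 2-fold higher were 267 with a pseudocount of 5 RPM, 87 at 4-fold and 248 with a mean of at least 20 RPM, and 504 with a pseudocount of 0.1 RPM, 535 with gene-model read scaling and 636 with no filter. Higher models made up 70.2% of calls as reported, 55.7% with the median ratio scaling and 90.6% at 4-fold. The class I count was 6 in each setting except 5 with a mean of at least 20 RPM or at least 5 RPM in the control library, both of which removed Solyc06g076540. No paired analysis was possible because there was a single library per condition. Depth limits Solyc06g076540 most, with 45.8 control reads.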
